A study of Mus musculus with 6 samples.

Results

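The Wnt pathway genes described here are 44 genes of the mouse that encode Wnt ligands, their secretion factors, receptors, inhibitors and intracellular effectors. They were chosen by name, and all 44 were found among the 26579 genes of the count matrix through their Ensembl identifiers in GENCODE M21 (GRCm38). They comprise 14 ligands, 2 secretion factors, 11 receptors and co-receptors, 8 secreted inhibitors and modulators, 2 receptor ubiquitin ligases, 4 transducers (β-catenin and 3 parts of its destruction complex) and 3 TCF/LEF transcription factors. Their RNA was sequenced from skin of the dorsal neck in 3 mice of the YAP2-5SA-∆C transgenic line and in 3 wild type littermates without the transgene. All mice were female, untreated and 33 days old, and each gave 1 library. YAP is a transcriptional co-activator that works with TEAD factors, and the transgene encodes a weakly activated form of it that is made in the basal layer, in keratinocytes with Keratin 5 and 14. The transgene is thus aimed at one layer of the epithelium, whereas the RNA came from whole skin with its dermis, hair follicles, vessels and muscle. The background strain is not given in the sources used here.

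Wnt proteins are lipid-modified by Porcupine, carried to the cell surface by Wntless and bound by Frizzled receptors together with the co-receptors LRP5 and LRP6. In the β-catenin branch, receptor binding stops a destruction complex of Axin, APC and kinases, and β-catenin then enters the nucleus and acts with TCF/LEF factors on target genes. Other Wnts act on cell polarity and movement without β-catenin. In skin the pathway is known for the formation of hair follicles, for the entry of follicles into growth and for the differentiation of the hair shaft, in which LEF1 takes part.

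Library totals ranged from 11225705 to 19505036 counts, and levels are given as CPM (counts scaled to the library total with TMM factors). Tests covered genes that reached 1 CPM in 3 or more libraries, which left 15102 genes and 43 of the 44 Wnt pathway genes. The mouse gene *Yap1*, on which reads of the transgene may or may not have been counted, averaged 131 ± 9.47 CPM in wild type and 136 ± 7.32 CPM in transgenic skin (± SD over 3 mice, as for all means here), so the counts of this gene did not separate the genotypes. Keratinocyte markers were read in every library. Over the 6 libraries their summed levels were 3315 to 6987 CPM for 6 basal genes and 6454 to 13838 CPM for 6 suprabasal genes. YAP2-5SA-∆C replicate 2 stood apart from the other libraries. It was the lowest of the 6 libraries for 24 of the 43 Wnt pathway genes (55.8%) and for 26.8% of all genes tested, and the summed level of 17 hair shaft and inner root sheath genes was 1705 CPM there, against 8229 and 10373 CPM in the other YAP2-5SA-∆C libraries and 15755 to 20910.4 CPM in wild type. Many of the values that moved with it are given with and without it below. A gene given without a second value may also have moved, as *Ctnnb1* did, from a log2 fold change of -0.39 to -0.29 without it.

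Most Wnt pathway genes had a lower mean level in YAP2-5SA-∆C skin, but few differences passed the test. Of the 43 genes tested, 31 had a log2 fold change below 0 and 12 above 0, with a median of -0.16, whereas 52.4% of all genes tested were below 0 and their median was -0.01. The median of the Wnt pathway genes was -0.10 without YAP2-5SA-∆C replicate 3, its nearest value to 0 when a single library was left out, and -0.20 without wild type replicate 2, its farthest. The receptor *Fzd3* fell and no gene rose in the quasi-likelihood test of edgeR (FDR by Benjamini-Hochberg, threshold 0.05), in which 0.464% of all genes were lower, 1.44% were higher and 1.91% were called in either direction. At an unadjusted p under 0.05, 16 Wnt pathway genes were lower and 3 higher, where the background was 13.0% lower and 13.3% higher, or 26.3% in either direction. In 17 genes all YAP2-5SA-∆C libraries lay below all wild type libraries, against a background of 18.2%, and in 5 genes they lay above, against 15.5%. The likelihood-ratio test of edgeR called 9 of the 43 genes (7 lower and 2 higher), beside 10.4% of all genes (4.87% lower and 5.52% higher). Because the tissue was bulk skin, fewer cells of a type and less RNA per cell cannot be told apart in these values.

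**Figure D1:**
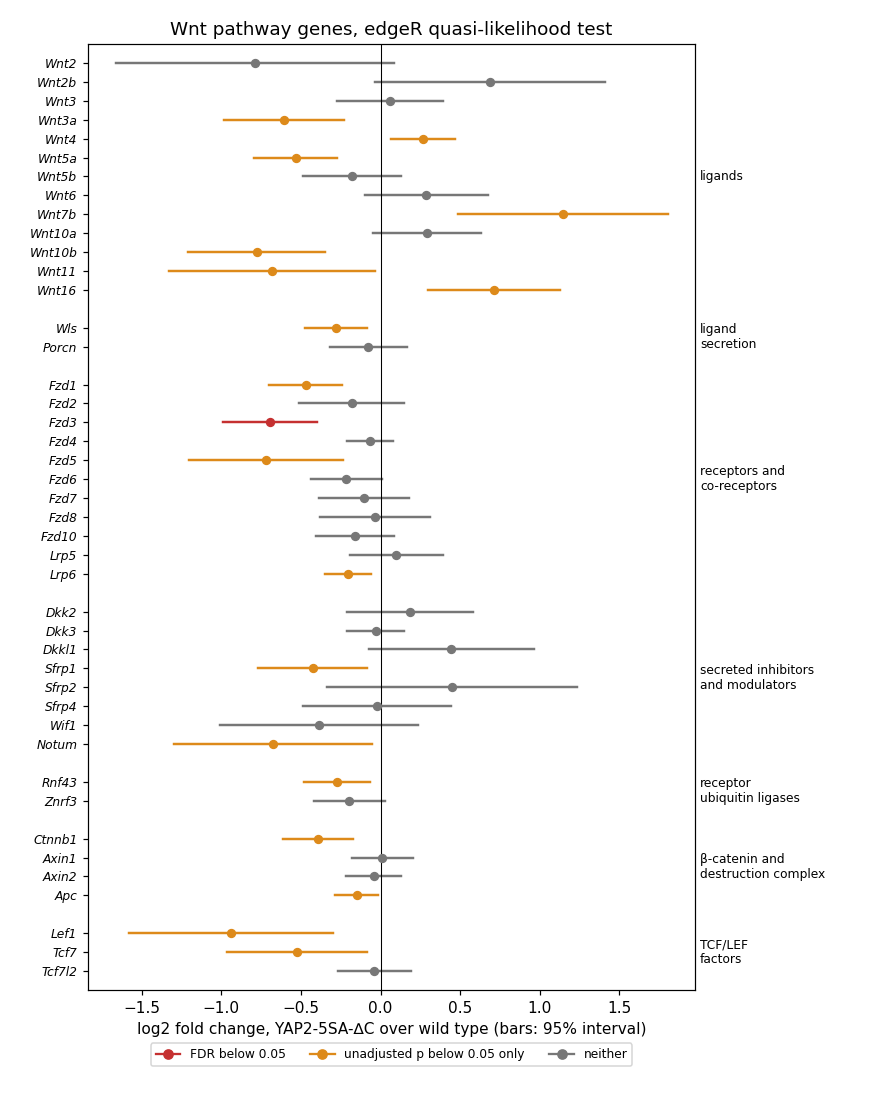
Log2 fold changes of YAP2-5SA-∆C over wild type skin for the 43 Wnt pathway genes tested, grouped by role, with bars for the 95% interval of edgeR's quasi-likelihood test. *Fzd3* is the only gene with an FDR below 0.05 (red), 18 more have an unadjusted p below 0.05 (orange), and 15 of these 18 lie below 0.

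**Figure D2:**
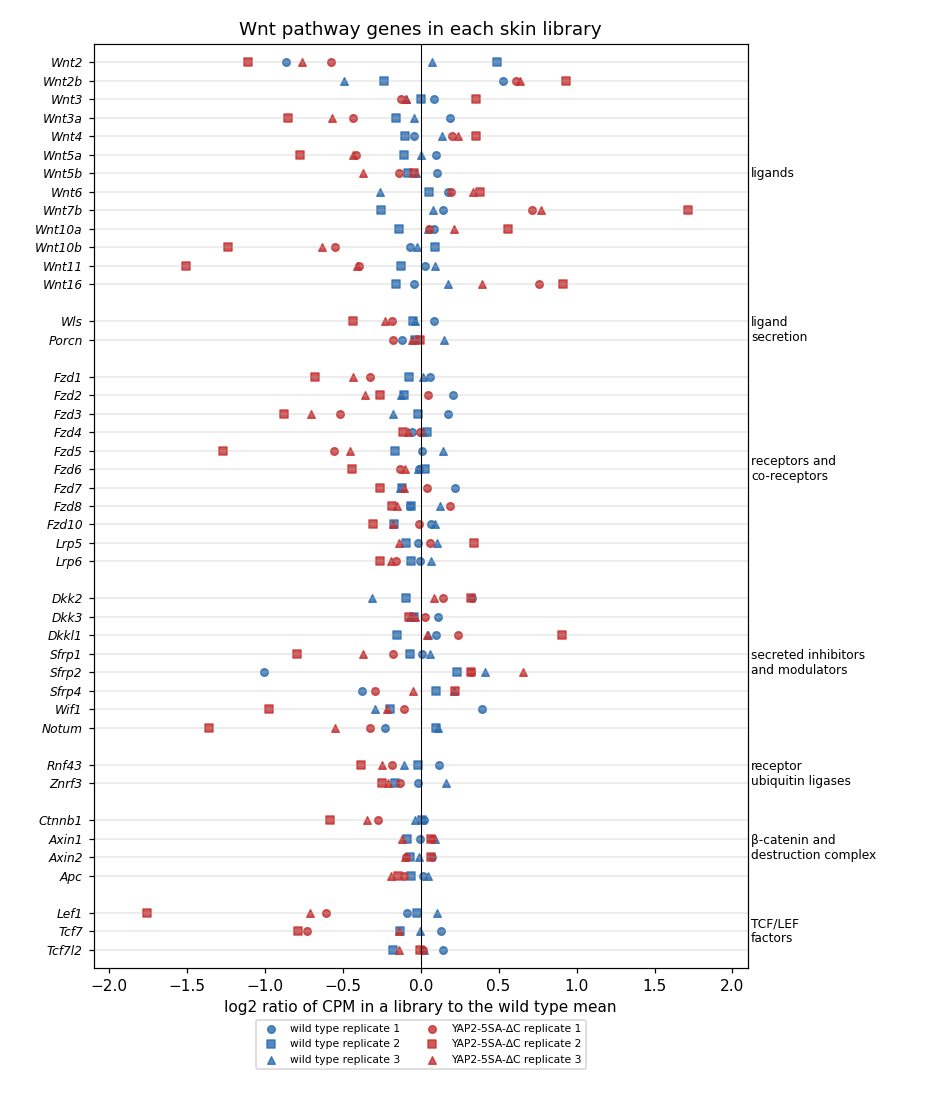
Log2 ratio of the CPM in each library to the wild type mean for the same genes, with wild type in blue, YAP2-5SA-∆C in red and replicates 1, 2 and 3 as circles, squares and triangles. YAP2-5SA-∆C replicate 2 (red squares) is the lowest library for 24 genes and the highest for 10 genes.

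The ligands did not move in one direction. Of the 13 tested, 7 had a log2 fold change above 0 and 6 below 0, and none passed the FDR threshold, while the unadjusted p was under 0.05 for 3 higher and 4 lower ligands, beside 13.3% and 13.0% of all genes. Their median was 0.06, or -0.096 without YAP2-5SA-∆C replicate 2, so its sign turned on that library, and it was 0.025 to 0.17 when any other library was left out. The likelihood-ratio test called *Wnt7b* and *Wnt16* higher and *Wnt3a*, *Wnt5a* and *Wnt10b* lower, where it called 10.4% of all genes. Summed per kilobase of merged exons, the 14 ligands stood at 45.9 to 50.3 CPM per kb in wild type and 46.9 to 54.2 CPM per kb in YAP2-5SA-∆C libraries, and the groups overlapped.

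*Wnt7b* (ENSMUSG00000022382, chromosome 15 of GRCm38 from 85535437 to 85582473) encodes a Wnt of the β-catenin branch. It had 19.1, 14.5 and 18.3 CPM in wild type replicates 1, 2 and 3, and 28.4, 56.7 and 29.5 CPM in the YAP2-5SA-∆C replicates. All YAP2-5SA-∆C libraries were above all wild type libraries, and replicate 2 was far above the other two. The mean went from 17.3 ± 2.44 to 38.2 ± 16.0 CPM (n = 3 per genotype), a log2 fold change of 1.15 (SE 0.28, 95% interval 0.49 to 1.80) with an FDR of 0.0667. Without YAP2-5SA-∆C replicate 2 the log2 fold change was 0.76 and the FDR 0.0215, so the difference was smaller but passed the threshold. With any other single library left out, the FDR was 0.074 to 0.215. An antisense gene, AU022754, overlaps 324 bases of the *Wnt7b* exons, and it held 44 counts over all libraries against 2763 for *Wnt7b*.

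*Wnt16* was the other ligand that was higher in the likelihood-ratio test, at a much lower level. It had 3.52, 3.24 and 4.09 CPM in wild type and 6.12, 6.82 and 4.74 CPM in transgenic skin, with no overlap (log2 fold change 0.71, SE 0.18, FDR 0.0684, or 0.0119 by the likelihood-ratio test). *Wnt4*, a ligand of the epidermis, also lay above wild type in every transgenic library. Its levels were 31.8, 30.6 and 36.0 CPM in wild type and 37.6, 41.9 and 38.6 CPM in transgenic skin, a small difference of 0.27 on the log2 scale (SE 0.08, FDR 0.11).

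The 4 lower ligands with an unadjusted p under 0.05 were *Wnt5a*, *Wnt10b*, *Wnt3a* and *Wnt11*. *Wnt5a* (ENSMUSG00000021994, chromosome 14 from 28504750 to 28527448), the best known ligand of the β-catenin-independent branch, had 72.1, 62.3 and 67.5 CPM in wild type and 50.6, 39.3 and 49.7 CPM in transgenic skin. The genotypes did not overlap, and the log2 fold change was -0.53 (SE 0.11, 95% interval -0.79 to -0.27) with an FDR of 0.0555. *Wnt10b* (ENSMUSG00000022996, chromosome 15 from 98770712 to 98778150), a β-catenin branch ligand known for driving follicles into growth, had 10.7, 12.0 and 11.0 CPM in wild type and 7.68, 4.77 and 7.24 CPM in transgenic skin. Its wild type libraries lay close together and all transgenic libraries lay below them (log2 fold change -0.78, SE 0.18, FDR 0.0635). Without YAP2-5SA-∆C replicate 2, the FDR was 0.03 for *Wnt5a* (log2 fold change -0.41) and 0.0407 for *Wnt10b* (log2 fold change -0.58). Neither passed the threshold with any other single library left out.

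*Wnt3a*, a ligand widely used to switch on β-catenin in culture, had 7.26, 5.70 and 6.18 CPM in wild type and 4.73, 3.53 and 4.31 CPM in transgenic skin. Its groups did not overlap, with a log2 fold change of -0.61 (SE 0.16, FDR 0.0769). *Wnt11*, another ligand known mainly for β-catenin-independent signalling, had 21.9, 19.7 and 23.0 CPM in wild type and 16.4, 7.59 and 16.2 CPM in transgenic skin. Replicate 2 was well below the other transgenic libraries, and the log2 fold change of -0.68 (SE 0.27, FDR 0.17) was -0.38 without it, with an FDR of 0.0713.

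The remaining 6 tested ligands had an unadjusted p above 0.05. *Wnt2* was at a log2 fold change of -0.79 (95% interval -1.66 to 0.08) and *Wnt2b* at 0.69 (95% interval -0.03 to 1.41), both with wide intervals and at under 3 CPM in every library. The wild type libraries of *Wnt2* themselves ranged from 1.04 to 2.67 CPM, and without wild type replicate 2 its log2 fold change was -0.41. *Wnt2b* was at 1.06 without wild type replicate 1. *Wnt6* and *Wnt10a*, which lie next to each other on chromosome 1, were both at a log2 fold change of 0.29. *Wnt10a* was at 0.16 without YAP2-5SA-∆C replicate 2. *Wnt3* was at 0.06 (95% interval -0.27 to 0.40), or -0.096 without that library, and *Wnt5b* at -0.18 (95% interval -0.48 to 0.13). When single libraries were left out, *Wnt5b* ranged from -0.23 to -0.09. *Wnt7a* was not tested, with 4, 4 and 1 counts in wild type and 4, 7 and 2 counts in YAP2-5SA-∆C libraries.

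Per kilobase of merged exons, *Wnt5a* was the ligand with the highest level in wild type skin, at 8.60 ± 0.62 CPM per kb (n = 3), followed by *Wnt4* (7.81 ± 0.68), *Wnt3* (6.54 ± 0.41), *Wnt10a* (5.70 ± 0.46), *Wnt11* (5.21 ± 0.41), *Wnt7b* (3.53 ± 0.50) and *Wnt10b* (3.31 ± 0.19). The ranges of *Wnt5a* (7.97 to 9.21) and *Wnt4* (7.29 to 8.57) overlapped, as did those of *Wnt10a* with *Wnt11* and of *Wnt7b* with *Wnt10b*, while *Wnt3* was apart from both of its neighbours. In YAP2-5SA-∆C skin *Wnt4* came first at 9.39 ± 0.54 CPM per kb, and *Wnt5a* was the fifth by its mean of 5.95 ± 0.80. That place rested on replicate 2 as well, at 5.02 CPM per kb against 6.46 and 6.35 in replicates 1 and 3, where *Wnt3* had 5.98 and 6.13 and *Wnt10a* 5.93 and 6.63. *Wnt7b* was the second by its mean of 7.80 ± 3.28, but this place came from replicate 2 at 11.6 CPM per kb. In the other YAP2-5SA-∆C libraries it had 5.79 and 6.03 CPM per kb, below *Wnt3* and *Wnt10a* in both. As a share of the summed ligand level, *Wnt7b* took 6.44% to 7.75% in wild type and 12.3% to 21.4% in YAP2-5SA-∆C libraries, and *Wnt5a* took 17.3% to 18.3% and 9.26% to 13.8%. Neither pair of ranges overlapped, and since shares add up to a fixed total, the higher share of one ligand lowers that of the others.

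**Figure D3:**
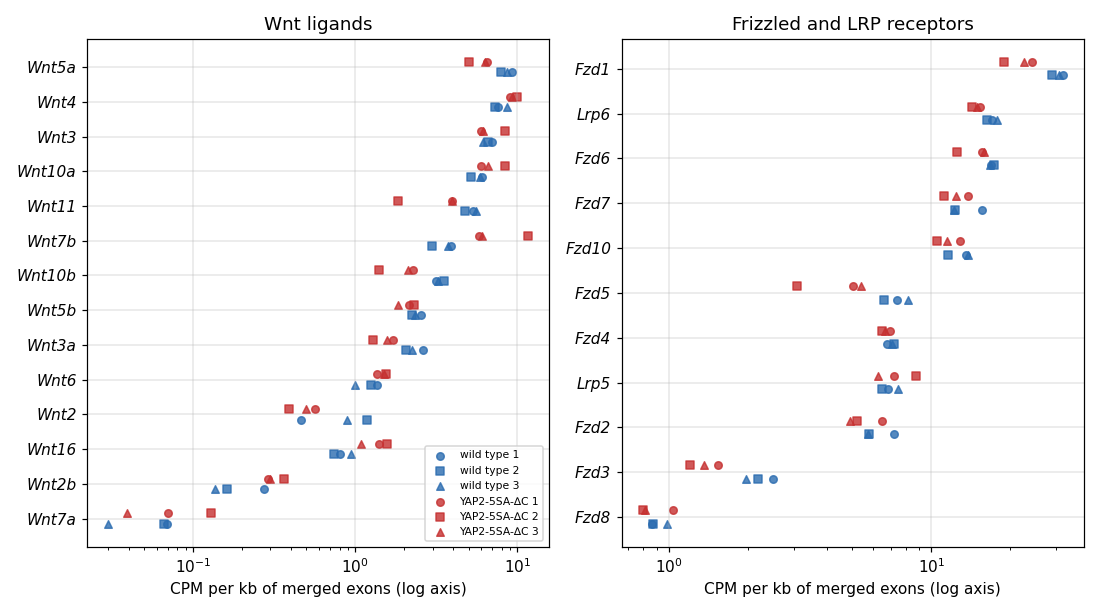
Levels of the 14 Wnt ligands (left) and the 11 Frizzled and LRP receptors (right) in CPM per kilobase of merged exons on a log axis, ordered by the wild type mean, with wild type in blue, YAP2-5SA-∆C in red and 1 point per library. *Wnt5a* is the highest ligand in wild type, *Wnt4* is the highest in YAP2-5SA-∆C skin, and *Fzd1* is the highest receptor in both.

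Promoter windows (250 bases before to 50 bases after a RefSeq start on GRCm38.p6) were at hand for 27 of the 44 genes, which had 37 windows. They were searched on both strands for the TCF/LEF motifs CTTTGAA and CTTTGAT and for the TEAD motif GGAATG, which do not overlap each other in these matches. CTTTGAA was in no window of these genes and in 5.14% of all 32851 windows, CTTTGAT was in windows of 2 genes and in 3.73% of all windows, and GGAATG was in a window of 1 gene and in 14.7% of all windows. The Wnt pathway counts are of genes and the percentages are of windows, so the units differ. Of the 12 genes with a window and an unadjusted p under 0.05, *Wnt11* had a match, to CTTTGAT. The 3 matches are printed below because the TCF/LEF and TEAD letters are those of the pathway and of the partner of YAP. The capitals mark the motif, which for *Wnt11* and for the TEAD match is read on the other strand. The *Wnt11* match began 51 bases before the start (chr7:98835050-98835078, plus strand), and the *Wnt5b* matches lay in windows of different starts, 71 bases before (chr6:119449440-119449468, minus strand) and 13 bases after (chr6:119467181-119467209, minus strand).
Wnt11, TCF/LEF letters: gacgtgggcggATCAAAGcgacggtccgc
Wnt5b, TCF/LEF letters: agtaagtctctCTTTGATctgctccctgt
Wnt5b, TEAD letters: ttgctgcttctCATTCCatgagctgggga

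Both secretion factors were tested. *Wls* (Wntless), which carries Wnt proteins to the cell surface, had 178, 162 and 163 CPM in wild type and 147, 124 and 143 CPM in transgenic skin, with a log2 fold change of -0.28 (SE 0.08, FDR 0.0944) with no overlap between the genotypes. *Porcn*, the acyltransferase that modifies Wnts, overlapped between the genotypes at a log2 fold change of -0.08 (95% interval -0.32 to 0.17).

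Among the receptors, 10 of 11 had a log2 fold change below 0, with a median of -0.18, or -0.099 without YAP2-5SA-∆C replicate 2 and -0.12 without wild type replicate 1. In 5 of them every transgenic library lay below wild type, where 18.2% of all genes did so. *Fzd3* (ENSMUSG00000007989, chromosome 14 from 65192449 to 65262463), a Frizzled receptor known from planar cell polarity and axon guidance, was the one that passed the quasi-likelihood test. It had 32.0, 28.0 and 25.1 CPM in wild type and 19.8, 15.5 and 17.4 CPM in transgenic skin, so every transgenic library was below every wild type library. The mean fell from 28.4 ± 3.45 to 17.6 ± 2.17 CPM (n = 3 per genotype), a log2 fold change of -0.69 (SE 0.13, 95% interval -0.99 to -0.40) with an FDR of 0.0467. This FDR was close to the threshold. Leaving out YAP2-5SA-∆C replicate 2 gave 0.0397, and leaving out any other library gave a value above 0.05, at up to 0.186, while the log2 fold change stayed between -0.77 and -0.59.

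*Fzd1* and *Fzd5* were the other receptors called lower by the likelihood-ratio test. *Fzd1* (ENSMUSG00000044674, chromosome 5 from 4753839 to 4758035) had the highest level per length of the receptors, 30.4 CPM per kb in wild type and 22.0 CPM per kb in YAP2-5SA-∆C skin. It had 133, 121 and 129 CPM in wild type and 102, 79.8 and 94.7 CPM in transgenic skin, with a log2 fold change of -0.47 (SE 0.10, FDR 0.0547). *Fzd5* had 51.3, 45.6 and 56.4 CPM in wild type and 34.7, 21.2 and 37.3 CPM in transgenic skin, with a log2 fold change of -0.72 (SE 0.20, FDR 0.0884). The genotypes did not overlap in either gene, and without YAP2-5SA-∆C replicate 2 both passed the threshold, with an FDR of 0.03 for *Fzd1* (log2 fold change -0.36) and 0.041 for *Fzd5* (log2 fold change -0.49). Neither passed with any other single library left out.

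The co-receptor gene *Lrp6* had 234, 224 and 244 CPM in wild type and 209, 195 and 205 CPM in transgenic skin, with a log2 fold change of -0.20 (SE 0.06, FDR 0.0944) with no overlap. Its paralog *Lrp5* was the receptor gene above 0, at a log2 fold change of 0.10 (95% interval -0.19 to 0.39), or -0.02 without YAP2-5SA-∆C replicate 2. *Fzd6*, known for the orientation of hairs, was below wild type in every transgenic library at a log2 fold change of -0.22 (95% interval -0.44 to 0.01), or -0.10 without that library. The other 5 Frizzled genes, *Fzd2*, *Fzd4*, *Fzd7*, *Fzd8* and *Fzd10*, overlapped between the genotypes with log2 fold changes from -0.18 to -0.03. For *Fzd4* the 95% interval was -0.21 to 0.08, so it was measured narrowly. Summed per kilobase, the 11 receptor genes stood at 116 to 127 CPM per kb in wild type and 93.1 to 110.05 CPM per kb in YAP2-5SA-∆C libraries.

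The 8 secreted inhibitors and modulators had a median log2 fold change of -0.02, which ranged from -0.065 to 0.039 when single libraries were left out, and none passed the FDR threshold. *Sfrp1*, which encodes a secreted Frizzled-related protein that binds Wnts, had the highest level per length of this class in wild type (26.6 CPM per kb). It had 117, 111 and 121 CPM in wild type and 103, 67.1 and 89.7 CPM in transgenic skin, with no overlap and a log2 fold change of -0.43 (SE 0.15, FDR 0.127). *Notum*, whose enzyme removes the lipid from Wnt proteins, had 4.51, 5.65 and 5.71 CPM in wild type and 4.23, 2.06 and 3.62 CPM in transgenic skin, with a log2 fold change of -0.67 (SE 0.26, FDR 0.162). These were the 2 of 8 genes of the class with an unadjusted p under 0.05, a share of 25% beside 26.3% of all genes. Both were lowest in YAP2-5SA-∆C replicate 2. Without that library the log2 fold change was -0.25 for *Sfrp1* and -0.41 for *Notum*.

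The other 6 inhibitors and modulators overlapped between the genotypes. The Dickkopf genes were at log2 fold changes of 0.18 (*Dkk2*) and -0.03 (*Dkk3*), and the Dickkopf-like gene *Dkkl1* at 0.45 (95% interval -0.07 to 0.96), or 0.16 without YAP2-5SA-∆C replicate 2. *Sfrp2* was at 0.45 (95% interval -0.33 to 1.23), *Sfrp4* at -0.02 and the Wnt inhibitory factor gene *Wif1* at -0.39 (95% interval -1.01 to 0.24), or -0.15 without that library. The wide intervals of *Sfrp2* and *Wif1* came with wild type libraries that disagreed among themselves, from 7.26 to 19.4 CPM for *Sfrp2* and from 20.4 to 32.7 CPM for *Wif1*. Without wild type replicate 1 *Sfrp2* was at 0.13, *Wif1* at -0.14 and *Dkk2* at 0.39. Over the removal of each single library, *Sfrp2* ranged from 0.13 to 0.71, *Wif1* from -0.53 to -0.14 and *Dkk2* from 0.06 to 0.39.

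*Rnf43* and *Znrf3* encode ubiquitin ligases that remove Frizzled receptors from the cell surface, and both are also known target genes of the pathway. *Rnf43* had 35.1, 31.9 and 30.0 CPM in wild type and 28.4, 24.8 and 27.1 CPM in transgenic skin, with a log2 fold change of -0.27 (SE 0.09, FDR 0.113) with no overlap. *Znrf3* overlapped between the genotypes at -0.20 (95% interval -0.42 to 0.03), or -0.10 without wild type replicate 3.

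Of the transducers, *Ctnnb1* (ENSMUSG00000006932, chromosome 9 from 120929216 to 120960507), the gene of β-catenin, had the highest level per length of all 44 genes, 148 CPM per kb in wild type and 113 CPM per kb in YAP2-5SA-∆C skin. It had 782, 774 and 751 CPM in wild type and 636, 514 and 606 CPM in transgenic skin. The wild type libraries lay close together, and every transgenic library was below them. The mean went from 769 ± 15.9 to 586 ± 63.6 CPM (n = 3 per genotype), a log2 fold change of -0.39 (SE 0.09, 95% interval -0.61 to -0.18). Its quasi-likelihood FDR was 0.0634, its likelihood-ratio FDR was 0.0598 and its adjusted p in DESeq2 was 0.00237, so this gene was called by DESeq2 alone. The neighbouring gene *Ulk4* overlaps 759 bases of its exons on the opposite strand, with 462 counts over all libraries against 66811 for *Ctnnb1*. These values are of the transcript and do not measure β-catenin protein, which the pathway controls mainly through its breakdown.

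*Axin2*, the most widely used target gene of the β-catenin branch and itself part of the destruction complex, had 45.3, 41.1 and 42.8 CPM in wild type and 40.3, 45.0 and 40.3 CPM in transgenic skin. The libraries of the 2 genotypes lay among each other, at 43.1 ± 2.09 and 41.8 ± 2.74 CPM (n = 3 per genotype). The log2 fold change was -0.04 (SE 0.07, FDR 0.748), and its 95% interval of -0.22 to 0.13 bounds the change of the whole skin level to 0.86-fold to 1.10-fold. YAP2-5SA-∆C replicate 2 was the highest transgenic library for this gene. *Axin1* was at a log2 fold change of 0.01 (95% interval -0.18 to 0.20). *Apc*, the scaffold of the destruction complex, had 178, 169 and 182 CPM in wild type and 163, 159 and 154 CPM in transgenic skin, with a log2 fold change of -0.15 (SE 0.06, FDR 0.156) with no overlap.

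The TCF/LEF factors were unequal. *Lef1* (ENSMUSG00000027985, chromosome 3 from 131110471 to 131224356), which encodes the factor of the hair matrix and cortex, had 84.3, 88.2 and 96.1 CPM in wild type and 58.8, 26.5 and 54.6 CPM in transgenic skin. All transgenic libraries were below all wild type libraries, and replicate 2 was the lowest by far. The mean went from 89.5 ± 5.99 to 46.6 ± 17.6 CPM (n = 3 per genotype), 1.92-fold lower, with a log2 fold change of -0.94 (SE 0.27, 95% interval -1.58 to -0.30). Its quasi-likelihood FDR was 0.0904 and its likelihood-ratio FDR was 0.00427. Without YAP2-5SA-∆C replicate 2 the log2 fold change was -0.64 and the quasi-likelihood FDR 0.0133. *Lef1* did not pass with any other single library left out. *Tcf7* had 15.2, 12.7 and 13.9 CPM in wild type and 8.40, 8.06 and 12.7 CPM in transgenic skin, with a log2 fold change of -0.52 (SE 0.19, FDR 0.137) in which the nearest libraries of the genotypes nearly touched. *Tcf7l2* was at -0.04 (95% interval -0.27 to 0.19). *Lef1* made up 54.2% ± 3.31 of the summed TCF/LEF level per kilobase in wild type and 42.2% ± 9.37 in transgenic skin (n = 3 per genotype), and these shares overlapped, at 50.3% in wild type replicate 1 and 50.5% in YAP2-5SA-∆C replicate 1.

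**Figure D4:**
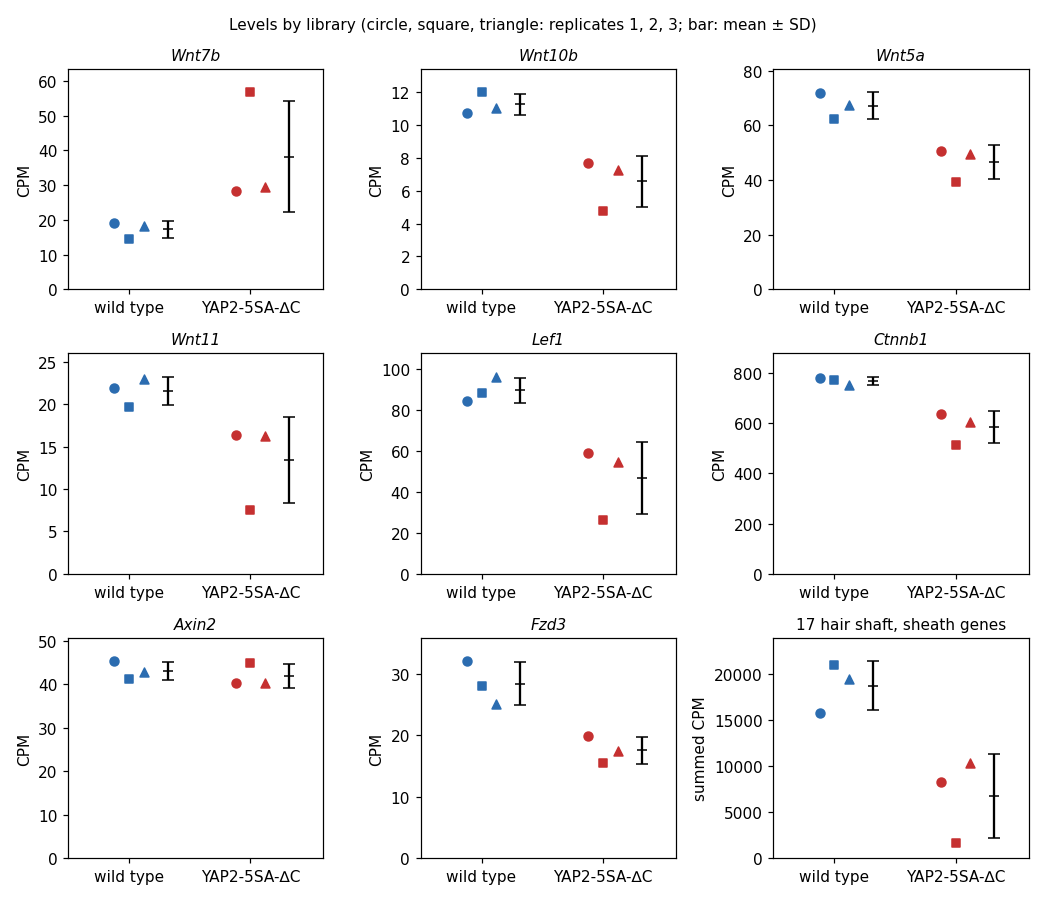
CPM of 8 Wnt pathway genes and summed CPM of 17 hair shaft and inner root sheath genes in each library, with wild type in blue, YAP2-5SA-∆C in red, replicates 1, 2 and 3 as circles, squares and triangles, and bars for the mean ± SD. YAP2-5SA-∆C replicate 2 (red square) is the lowest library for *Lef1*, *Wnt11* and the hair genes and the highest for *Wnt7b*, whereas *Axin2* overlaps between the genotypes.

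A list of 21 target genes of the β-catenin branch held 6 of the genes above (*Axin2*, *Lef1*, *Tcf7*, *Notum*, *Rnf43* and *Znrf3*). The list was chosen with earlier results of these data known, and the authors had followed up *Foxn1* and *Msx2* as differentially expressed. Its shares beside those of all genes are therefore not an independent comparison. Of its 19 tested genes, 15 had a log2 fold change below 0 and 4 above 0, 10 lay below wild type in every transgenic library (18.2% of all genes did) and none lay above. The median was -0.38, or -0.22 without YAP2-5SA-∆C replicate 2 and likewise without wild type replicate 1. None passed the FDR threshold of the quasi-likelihood test, 10 had an unadjusted p under 0.05 (26.3% of all genes) and the likelihood-ratio test called 7 (10.4% of all genes), all lower. Without YAP2-5SA-∆C replicate 2, 6 passed the quasi-likelihood threshold, all lower, beside 5.46% of all genes. The lowest p-values were those of *Foxn1*, a regulator of hair differentiation (log2 fold change -1.11, SE 0.25, FDR 0.0618), *Nkd1*, a feedback inhibitor that acts on Dishevelled (-0.60, SE 0.14, FDR 0.064), and *Msx2*, a homeobox gene of the hair matrix (-1.13, SE 0.31, FDR 0.0811). *Foxn1* had 29.5, 38.0 and 41.8 CPM in wild type and 18.5, 10.8 and 21.2 CPM in transgenic skin. All of its libraries in transgenic skin lay below those of wild type.

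Across all 75 further pathway genes that were listed by role, 66 were tested, of which 45 had a log2 fold change below 0 and 21 above 0. Their median was -0.10, or -0.048 without wild type replicate 1 and -0.055 without YAP2-5SA-∆C replicate 3. *Csnk1e*, which encodes a casein kinase that phosphorylates Dishevelled, fell from 127 ± 11.1 to 85.1 ± 4.76 CPM (n = 3 per genotype), with a log2 fold change of -0.57 (SE 0.08, FDR 0.0394), and no other of these genes passed the quasi-likelihood test. Its libraries had 114, 130.3 and 136 CPM in wild type and 89.0, 79.8 and 86.6 CPM in transgenic skin, and its call was lost without wild type replicate 2 or 3 or without YAP2-5SA-∆C replicate 1 or 3. The likelihood-ratio test called 11 of the 66, all lower, beside 10.4% of all genes. Among the other receptors, the lowest p-values were those of *Ror2*, a co-receptor of WNT5A (log2 fold change -0.48, SE 0.11, FDR 0.0634), *Lgr4*, a receptor of R-spondins (-0.32, SE 0.12, FDR 0.14), and *Gpc3*, a glypican (-0.20, SE 0.09, FDR 0.204). Without YAP2-5SA-∆C replicate 2, *Lgr4* was at -0.19 and *Gpc3* at -0.12. Among the other ligands they were those of *Rspo2*, an R-spondin that strengthens Wnt signals (-0.95, SE 0.31, FDR 0.114), *Wnt9a* (-0.47, SE 0.24, FDR 0.263, and -0.22 without wild type replicate 1) and *Ndp*, which encodes the Frizzled ligand Norrin (0.63, SE 0.35, FDR 0.303, and 0.41 without YAP2-5SA-∆C replicate 2). Over the removal of each single library *Ndp* ranged from 0.33 to 0.91.

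Among the other inhibitors and modulators, *Shisa2*, which holds back Frizzled maturation, was at a log2 fold change of -0.52 (SE 0.14, FDR 0.0769), *Cthrc1*, listed here as a secreted modulator that is known to favour the polarity branch, at 0.62 (SE 0.19, FDR 0.104) and *Sfrp5* at 0.30 (SE 0.21, FDR 0.404). Among the nuclear factors, the lowest p-values were those of the co-repressor gene *Tle3* (-0.18, SE 0.06, FDR 0.125), *Sox9* (-0.18, SE 0.12, FDR 0.362, and -0.08 without YAP2-5SA-∆C replicate 2) and *Tle2* (0.19, SE 0.17, FDR 0.509). None of these inhibitors, nuclear factors, other receptors or other ligands passed the FDR threshold in the quasi-likelihood test. An unadjusted p under 0.05 was reached by 2 of 7 inhibitors, 1 of 10 nuclear factors, 2 of 11 receptors and 1 of 7 ligands tested. Of all genes, 26.3% reached it. Of the 23 other intracellular transducers, *Csnk1e* among them, 18 had a log2 fold change below 0 and 7 had an unadjusted p under 0.05, all lower, a share of 30.4% beside 26.3% of all genes.

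Markers of several cell types moved with the genotype as well. Of 15 marker lists, the summed CPM was below wild type in every YAP2-5SA-∆C library for 3, above it for 4 and overlapping for 8. The lower lists were hair shaft and inner root sheath (17 genes, above), hair matrix and cortex precursors (7 genes, 423 to 467 CPM in wild type and 201 to 314 CPM in transgenic skin) and melanocytes (6 genes, 426 to 497 and 153 to 270.2 CPM). *Lef1*, *Foxn1*, *Msx2* and *Hoxc13* were in both the hair matrix list and the list of target genes, so these lists do not count as separate evidence. The higher lists were basal keratinocytes (3315 to 3921 and 5406 to 6987 CPM), sebaceous gland (2724 to 3505 and 4021 to 5818 CPM), macrophages (429.8 to 510.4 and 624 to 703 CPM) and endothelium (111 to 119 and 126 to 153 CPM). Those of follicle stem cells, dermal papilla, suprabasal and stress keratinocytes, fibroblasts, adipocytes, skeletal muscle and T cells overlapped. The stress keratinocyte sum overlapped through YAP2-5SA-∆C replicate 2, at 1342 CPM. Of its 7 genes, 3 (*Krt6b*, *Krt16* and *Sprr1b*) rose in the quasi-likelihood test, where 1.44% of all genes did. The list did not move as one, since 1 gene lay below wild type in every transgenic library. That gene was called lower by the likelihood-ratio test. The median log2 fold change over the list was 1.47, or 1.88 without YAP2-5SA-∆C replicate 2. Of the hair shaft and sheath genes 16 of 17 lay below wild type in every transgenic library (18.2% of all genes did) and 15 were called lower by the likelihood-ratio test, but none passed the quasi-likelihood FDR threshold, with 15 at an unadjusted p under 0.05. They were at a median log2 fold change of -1.42, or -0.95 without YAP2-5SA-∆C replicate 2. Without that library 15 of these genes passed the quasi-likelihood threshold, all lower, beside 5.46% of all genes. DESeq2 called 0 of them with all libraries. The part of these cell types in the values of *Lef1*, *Wnt10b*, *Wnt5a*, *Wnt11* and the other lower genes was not tested.

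Leaving out YAP2-5SA-∆C replicate 2 made more differences pass, although they became smaller. Without it, 7 Wnt pathway genes passed the FDR threshold (*Fzd1*, *Fzd3*, *Fzd5*, *Lef1*, *Wnt5a* and *Wnt10b* lower and *Wnt7b* higher), beside 5.46% of all genes. Without any one of the other 5 libraries, 0 genes of the 43 passed in edgeR's quasi-likelihood test, with 13 to 19 at an unadjusted p under 0.05. The same fits called 0 to 142 of all genes and had 18.2% to 25.7% of all genes at an unadjusted p under 0.05. The 3 mice of a genotype were separate animals, and an exact permutation test of 3 against 3 could not give a p under 0.1 for a single gene.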

How the data were processed

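RNA-Seq libraries of dorsal neck skin from 3 wild type and 3 YAP2-5SA-∆C mice were analysed, grouped by their sample titles. The deposited values are raw counts for each Ensembl gene, which the authors made, per the labels, with TopHat2 2.0.12, Bowtie2 2.1.0 and HTSeq on GRCm38. The labels name a stranded total RNA kit and also describe mRNA libraries, and the strand setting of the counting and the annotation release are not given in the sources used here, so reads of overlapping antisense genes may not be told apart. GENCODE M21 gave names, positions and exon lengths (558 identifiers of the matrix were absent). In R 4.3.3, genes that reached 1 CPM in 3 or more libraries were scaled by TMM and tested with glmQLFit and glmQLFTest of edgeR 4.0.16, with genotype as the only term and Benjamini-Hochberg adjustment over all 15102 genes. SEs and 95% intervals were derived from the F statistic. Alternatives were RLE and upper-quartile scaling, no filter, at least 10 counts in every library, the likelihood-ratio test with tagwise dispersion, voom (limma 3.58.1), DESeq2 1.42.0, the replicate number as a block and removal of single libraries. CPM per kb used merged exon length. Values per library and statistics are given for genes with an unadjusted p under 0.05, those called by the likelihood-ratio test, the highest of each role class per length, and *Axin2*, *Lef1*, *Ctnnb1* and *Wls*. Of the other pathway lists, genes past the FDR threshold or the 3 lowest p-values are named. The genes and lists were chosen with earlier results of these data known. Library totals of 11225705 to 19505036 counts set the counting precision.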

Additional observations from a re-analysis of the deposited data

How the results depend on the processing

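The number of Wnt pathway genes called was 1, *Fzd3*, under RLE and upper-quartile scaling, both other count filters and voom, and 9 under the likelihood-ratio test and under DESeq2. Of the 75 further pathway genes, 1 was called in the quasi-likelihood test, 11 in the likelihood-ratio test and 8 in DESeq2. Over all genes the counts were 288 in the quasi-likelihood test, 497 with no filter, 1568 in the likelihood-ratio test and 1590 in DESeq2. Leaving out each library gave 0 to 7 Wnt pathway genes, 0 to 8 further pathway genes and 0 to 817 genes over all. The highest counts came without YAP2-5SA-∆C replicate 2. Over all genes, edgeR's quasi-likelihood test called 0 without replicate 2 of wild type (2726 at an unadjusted p under 0.05), without replicate 3 of wild type (2844) and without replicate 3 of YAP2-5SA-∆C (3691). The cause was not tested. The replicate numbers gave no sign of pairing the mice. Deviations of same-numbered libraries from their group means correlated at -0.33, -0.23 and -0.05, and those of differently numbered libraries at -0.07 to 0.27. Deviations from a mean of 3 libraries sum to 0, which constrains these correlations, so they cannot exclude pairing. With the replicate block 0 Wnt pathway genes, 0 further pathway genes and 0 genes over all were called by edgeR's quasi-likelihood test, with 17, 16 and 2949 at an unadjusted p under 0.05. The 20 Wnt pathway genes with full statistics kept their direction under every alternative except *Axin2*, whose log2 fold change of -0.04 ranged from -0.081 to 0.0053 when single libraries were left out and was above 0 without wild type replicate 1 (0.0012) and without YAP2-5SA-∆C replicate 1 (0.0053). Between 27 and 32 of the 43 genes had a log2 fold change below 0 when single libraries were left out, and 30 or 31 under the 3 scalings. The values of *Wnt2*, *Wnt2b*, *Wnt6* and *Wnt7a* rest on few CPM.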
